A study of Mus musculus with 11 samples.

Results

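Mitosis and G2/M genes were followed in a mouse pancreatic acinar cell line in which the chromatin remodelling gene Arid1a was knocked down, the cells were stimulated with EGF, or both. The 40 genes were taken by their symbols from a list that covers entry into mitosis, the spindle checkpoint, centromeres and kinetochores, the chromosomal passenger complex, anaphase, the spindle, cytokinesis and chromosome structure. All 40 were among the 23284 gene symbols of the deposited count tables, and all 40 had enough reads to be tested.

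Passage through G2 and mitosis is driven by the kinase CDK1, which becomes active when it binds cyclin B and is dephosphorylated by CDC25 phosphatases. Kinetochore proteins attach chromosomes to the spindle, and checkpoint proteins delay anaphase until all are attached. The anaphase-promoting complex with CDC20 then marks cyclin B and securin for destruction. Most genes of this programme are transcribed late in the cell cycle, under the DREAM, MuvB-B-MYB and FOXM1 complexes, which bind CHR elements in their promoters beside CCAAT boxes bound by NF-Y. The RNA of such genes is therefore often read as a mark of dividing cells, although it also depends on the output of each cell.

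The cells were of the 266-6 line, a line of murine pancreatic acinar cells grown in serum, and their RNA was sequenced as polyadenylated transcripts after a knockdown of 48 h. They were kept overnight in medium without serum before EGF or its vehicle was given for 8 h, a step that all groups share. The series asks how signalling by the EGF receptor and ARID1A, which helps target the BAF type of SWI/SNF chromatin remodeller to DNA, act together on the transcriptome. The groups were Arid1a siRNAs with EGF (25 nM siRNA, 40 ng/ml EGF, n = 3), Arid1a siRNAs with the vehicle 0.1% BSA (n = 3), a non-targeting control siRNA with 40 ng/ml EGF (n = 3), and the control siRNA with the vehicle (n = 2). Groups given the vehicle are called "alone" here. The knockdown was transient, in 1 cell line, and the labels do not state whether replicates were separate cultures. The p-values therefore speak only of the spread among these libraries, which may be technical.

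The libraries held 10279763 to 19773007 reads counted to genes. Levels are given as CPM, reads scaled to a common library size after TMM normalisation, and changes are log2 fold changes ± standard error from 1 edgeR quasi-likelihood fit of all 11 libraries, with calls made where the Benjamini-Hochberg adjusted p over the 13343 genes tested was under 0.05. Arid1a had 145, 122 and 152 CPM with Arid1a siRNAs plus EGF, 151, 157 and 127 CPM with Arid1a siRNAs alone, 308, 263 and 300.2 CPM with control siRNA plus EGF, and 292 and 399.9 CPM with control siRNA alone. All 6 libraries of the knockdown lay below all 5 of the control siRNA, by log2 -1.06 ± 0.12 with EGF (edgeR adjusted p = 2.85e-05) and log2 -1.25 ± 0.14 without it (edgeR adjusted p = 2.36e-05). Of the 14 acinar markers 13 were tested, with Ctrb1 at 11300 to 14300 CPM and Amy2a5 at 0 in every library. The ductal list (5 of 6 tested, mostly Sox9) summed to 64.2 to 70.0 CPM with Arid1a siRNAs and EGF, 51.3 to 56.5 CPM with Arid1a siRNAs alone, 110 to 120 CPM with control siRNA and EGF, and 54.0 to 77.6 CPM with control siRNA alone, without overlap between the groups given EGF. The fibroblast and stellate list (7 of 7 tested, mostly Pdgfrb at 269 to 321 CPM) summed to 320 to 327 CPM with Arid1a siRNAs and EGF, 301 to 336 CPM with Arid1a siRNAs alone, 303 to 334 CPM with control siRNA and EGF, and 282 to 289 CPM with control siRNA alone. The immune list (1 of 6 tested, the macrophage gene Cd68) summed to 8.28 to 9.30 CPM with Arid1a siRNAs and EGF, 6.00 to 7.09 CPM with Arid1a siRNAs alone, 6.42 to 7.68 CPM with control siRNA and EGF, and 5.06 to 5.59 CPM with control siRNA alone. The endothelial list (1 of 3 tested, Kdr) reached at most 3.03 CPM in a library and the islet list (0 of 4 tested) at most 0.0933 CPM, with the defining genes Cd3e, Cdh5, Ins1, Ins2 and Sst at 0 in all 11 libraries. The part of these lists in the results on the members was not tested.

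Members were highly expressed for their length. Over the 9 FPKM columns that could be tied to a group (fragments scaled by transcript length and library size; control siRNA alone is not among them), the median member stood at 44.6 FPKM, against 11.8 FPKM over all genes tested, and all 40 lay above the median of the genes listed. The highest per length were Ube2c, the ubiquitin-conjugating enzyme of the anaphase-promoting complex, at 291 FPKM, the centromeric histone gene Cenpa at 154 FPKM, Birc5 (survivin) at 147 FPKM and the topoisomerase gene Top2a at 137 FPKM. The lowest were the phosphatase gene Cdc25c at 13.7 FPKM, the kinetochore motor gene Cenpe at 17.3 FPKM and the checkpoint kinase gene Ttk at 17.6 FPKM.

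Promoter sequences are shown for 5 members, to set the elements named above beside the changes that follow. RefSeq (GRCm38.p6) gave a window from 250 bases before to 50 bases after the start for 34 of the 40 members. Capitals mark the CHR letters TTTGAA and the CCAAT box, searched on both strands. A CCAAT on the other strand reads ATTGG, and no marked motifs overlap in these windows. Ccnb2 (cyclin B2) and Prc1 (an antiparallel microtubule bundler of the midzone) fell with EGF and hold both motifs. Prc1 also rose with the Arid1a siRNAs, and Ccnb2 did where EGF was present. Cdc20 (the activator of the anaphase-promoting complex) rose with the Arid1a siRNAs, fell with EGF under control siRNA and holds both. Cdk1 (the mitotic kinase) holds both and was called in no comparison of the edgeR fit of all 11 libraries. Some other fits called Cdk1 lower with the Arid1a siRNAs in the presence of EGF. Nusap1 (a spindle microtubule binder) had the largest fall with EGF, rose with the Arid1a siRNAs where EGF was present, and holds neither.
Ccnb2: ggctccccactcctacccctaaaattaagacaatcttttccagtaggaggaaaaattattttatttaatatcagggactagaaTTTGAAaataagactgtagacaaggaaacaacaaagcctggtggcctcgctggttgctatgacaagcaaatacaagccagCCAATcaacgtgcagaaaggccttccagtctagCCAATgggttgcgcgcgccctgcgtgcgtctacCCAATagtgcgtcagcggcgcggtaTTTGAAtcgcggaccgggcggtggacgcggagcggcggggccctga
Prc1: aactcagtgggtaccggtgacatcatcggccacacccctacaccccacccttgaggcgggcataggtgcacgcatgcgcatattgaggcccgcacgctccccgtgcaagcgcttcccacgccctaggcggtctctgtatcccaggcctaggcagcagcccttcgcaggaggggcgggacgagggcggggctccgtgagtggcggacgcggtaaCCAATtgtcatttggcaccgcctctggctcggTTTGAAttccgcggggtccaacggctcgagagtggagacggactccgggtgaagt
Cdc20: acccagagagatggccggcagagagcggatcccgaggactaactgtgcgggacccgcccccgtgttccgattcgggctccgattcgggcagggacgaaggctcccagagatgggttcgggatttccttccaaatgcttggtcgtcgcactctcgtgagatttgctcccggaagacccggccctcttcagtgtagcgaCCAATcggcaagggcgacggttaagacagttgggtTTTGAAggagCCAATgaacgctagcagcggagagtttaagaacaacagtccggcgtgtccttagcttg
Cdk1: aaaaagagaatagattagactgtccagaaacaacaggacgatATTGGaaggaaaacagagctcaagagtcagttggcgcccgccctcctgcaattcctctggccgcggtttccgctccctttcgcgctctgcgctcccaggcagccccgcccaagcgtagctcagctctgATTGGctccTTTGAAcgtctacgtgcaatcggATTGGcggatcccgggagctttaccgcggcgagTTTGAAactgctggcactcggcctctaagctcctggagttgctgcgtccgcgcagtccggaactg
Nusap1: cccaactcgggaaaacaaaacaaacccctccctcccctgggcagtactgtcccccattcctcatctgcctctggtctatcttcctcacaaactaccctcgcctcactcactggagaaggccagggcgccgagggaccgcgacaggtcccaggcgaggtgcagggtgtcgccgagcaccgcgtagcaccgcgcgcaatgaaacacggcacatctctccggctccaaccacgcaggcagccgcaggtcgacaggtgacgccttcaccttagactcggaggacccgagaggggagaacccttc
These windows lie at chr9:70421505-70421804, minus strand for Ccnb2, chr7:80294201-80294500, plus strand for Prc1 (1 of 2 starts), chr4:118437294-118437593, minus strand for Cdc20, chr10:69352863-69353162, minus strand for Cdk1 and chr2:119618048-119618347, plus strand for Nusap1. They are printed 5′ to 3′ along the gene.

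Prc1, Ect2 and Bub3 have a pair of windows each, and a match in either was counted. TTTGAA stood in 25 of the 34 members (73.5%) and in 17.9% of all 32851 promoter windows of the same length. CCAAT stood in 26 members (76.5%) and 37.4% of all windows, and both stood in 22 members (64.7%) and 7.0% of all windows. The second CHR form TTTAAA stood in 9 members (26.5%) and 13.2% of all windows. Of 4 E2F cores searched, the letters TTGGCGC stood in 4 members and the letters TTCGCGC in 2, while TTCCCGC stood in none and neither did the form TTGCCGC, which made 5 members with any of them (14.7%) and 9.6% of all windows. Motifs stood among members that were called and members that were not. Among the members lower with EGF and control siRNA, TTTGAA stood in 16 of the 23 members with a window and CCAAT in 16, against 9 and 10 of the 11 that did not pass. A match is a description of the letters in the window, and no binding was measured here.

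**Figure D1:**
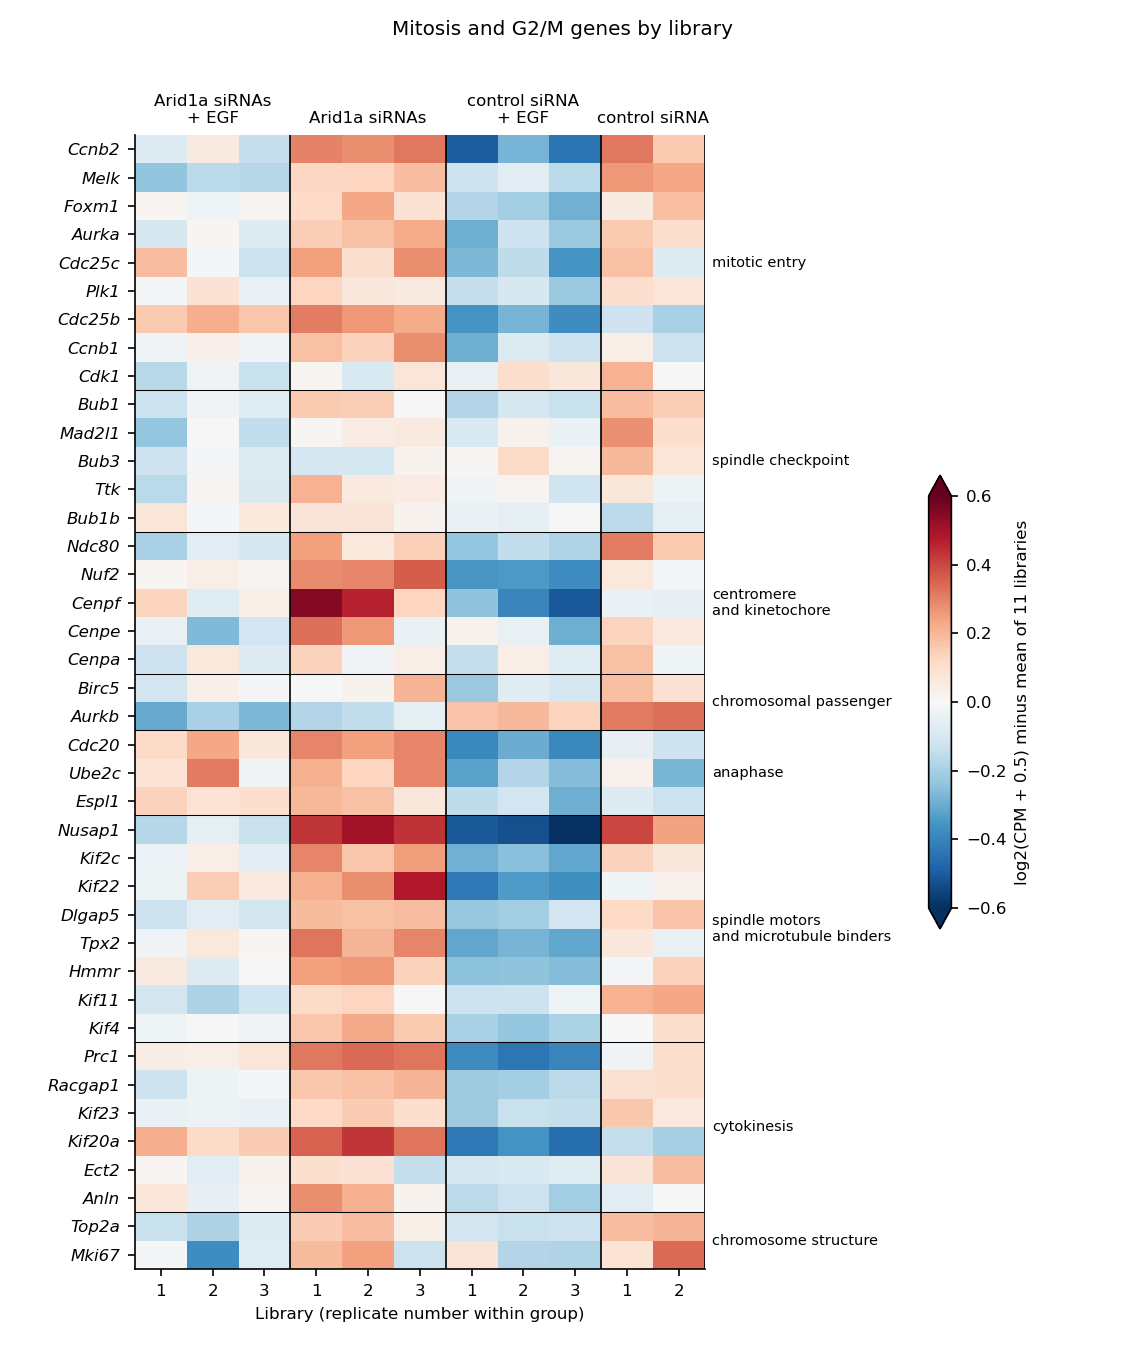
Level of each of the 40 genes in each of the 11 libraries, as log2(CPM + 0.5) minus the gene's mean over all libraries (colour scale, log2), with genes in rows by role and libraries in columns by group. Most rows are darkest blue in the 3 libraries with control siRNA and EGF and red in those with Arid1a siRNAs alone; the Aurkb row runs the other way across the siRNAs.

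The summed level of the 40 members separated the groups. It was 7202 to 7219 CPM with Arid1a siRNAs and EGF, 8054 to 8420 CPM with Arid1a siRNAs alone, 6540 to 6721 CPM with control siRNA and EGF, and 7919 to 7977 CPM with control siRNA alone. The 4 ranges did not overlap. The group mean was highest with Arid1a siRNAs alone for 26 members and with control siRNA alone for the other 14, so no member had its highest mean with EGF. It was lowest with control siRNA and EGF for 29 members, with Arid1a siRNAs and EGF for 10 and with control siRNA alone for 1, Bub1b. In bulk RNA, fewer dividing cells and less of this RNA per cell cannot be told apart.

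Most of the mitotic genes were lower with EGF in cells with control siRNA. Of the 40 members 29 fell, none rose and 11 did not pass, against 18.8% of all genes called lower and 16.8% called higher in this comparison (n = 3 against n = 2). The falls were mostly modest: the members' median log2 change was -0.28 (all genes tested -0.03), and Nusap1 and Ccnb2 stood out with 1.84-fold and 1.56-fold lower RNA. In 32 members every EGF library lay below both libraries with control siRNA alone, where 29.9% of all genes did. In 1 member, Bub1b, every EGF library lay above them, but by less than the rounding in the closest pair. Replicate 2 of control siRNA with EGF and control siRNA replicate 2 both had 202.1 CPM. The share of all genes above was not counted.

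Among genes of mitotic entry 7 of 9 fell. Ccnb2 had 61.8, 71.9 and 64.3 CPM with control siRNA plus EGF, against 109 and 97.3 CPM with control siRNA alone, without overlap (log2 -0.64 ± 0.08, edgeR adjusted p = 1.78e-05). The other mitotic B-type cyclin gene, Ccnb1, had 38.7, 44.9 and 43.4 CPM with control siRNA plus EGF, against 48.9 and 43.3 CPM with control siRNA alone, and these ranges overlapped (log2 -0.13 ± 0.08, edgeR adjusted p = 0.26). Their partner Cdk1 did not pass either: it had 361, 400.1 and 390.5 CPM with control siRNA plus EGF, against 431 and 372 CPM with control siRNA alone (log2 -0.06 ± 0.07, edgeR adjusted p = 0.542). The other kinase genes of mitotic entry fell. Melk, a kinase gene of the programme, had 119.5, 124 and 117 CPM with control siRNA plus EGF, against 156 and 153 CPM with control siRNA alone (log2 -0.36 ± 0.06, edgeR adjusted p = 0.000154). Aurka, whose kinase matures centrosomes, had 132, 149 and 139 CPM with control siRNA plus EGF, against 181 and 173 CPM with control siRNA alone (log2 -0.34 ± 0.06, edgeR adjusted p = 0.000713). Plk1, the polo-like kinase that promotes activation of CDK1, had 130.1, 135 and 123 CPM with control siRNA plus EGF, against 154 and 151 CPM with control siRNA alone (log2 -0.24 ± 0.06, edgeR adjusted p = 0.0064). In each of these 3 the groups did not overlap. The transcription factor gene Foxm1, an activator of late cell-cycle genes, had 162, 158 and 149.7 CPM with control siRNA plus EGF, against 189 and 207 CPM with control siRNA alone, also apart (log2 -0.34 ± 0.06, edgeR adjusted p = 0.000727). The CDC25 phosphatase genes moved less clearly. Cdc25b had 60.0, 63.4 and 59.4 CPM with control siRNA plus EGF, against 70.6 and 67.3 CPM with control siRNA alone (log2 -0.18 ± 0.06, edgeR adjusted p = 0.0355), and Cdc25c changed by log2 -0.32 ± 0.11 (edgeR adjusted p = 0.0379).

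All 8 spindle motor and microtubule-binding genes fell, with log2 changes of -0.26 to -0.88. Nusap1 had 54.0, 53.1 and 49.96 CPM with control siRNA plus EGF, against 102 and 90.9 CPM with control siRNA alone, the largest difference of any member (log2 -0.88 ± 0.07, edgeR adjusted p = 2.5e-07). The other 7 were the kinesin genes Kif2c (log2 -0.39 ± 0.06), a microtubule depolymeriser at centromeres, Kif22 (log2 -0.38 ± 0.08) and Kif4 (log2 -0.26 ± 0.06), which ride on chromosome arms, and Kif11 (log2 -0.31 ± 0.06), which pushes the poles apart, with the spindle assembly genes Tpx2 (log2 -0.32 ± 0.06), Hmmr (log2 -0.31 ± 0.06) and Dlgap5 (log2 -0.33 ± 0.06). In all 8 the EGF libraries lay below both control libraries. Cytokinesis genes fell in 5 of 6. Prc1 had 127, 122 and 126 CPM with control siRNA plus EGF, against 163 and 177 CPM with control siRNA alone, without overlap (log2 -0.44 ± 0.05, edgeR adjusted p = 2.21e-05). Kif20a, a kinesin of the midzone, had 87.7, 92.1 and 86.3 CPM with control siRNA plus EGF, against 107 and 103 CPM with control siRNA alone (log2 -0.24 ± 0.06, edgeR adjusted p = 0.00614). The centralspindlin genes Racgap1 (log2 -0.29 ± 0.05) and Kif23 (log2 -0.27 ± 0.06) and the RhoA activator gene Ect2 (log2 -0.22 ± 0.07) fell as well, and the contractile ring scaffold gene Anln did not pass (log2 -0.13 ± 0.07, edgeR adjusted p = 0.172).

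Centromere and kinetochore genes fell in 3 of 5: the NDC80 complex genes Ndc80 (log2 -0.42 ± 0.07) and Nuf2 (log2 -0.39 ± 0.06), and Cenpf (log2 -0.33 ± 0.11), which encodes a large kinetochore protein. Nuf2 had 68.3, 68.7 and 67.3 CPM with control siRNA plus EGF, against 91.3 and 86.7 CPM with control siRNA alone, a tight and separate pair of groups. Cenpe (log2 -0.20 ± 0.11, edgeR adjusted p = 0.178) and Cenpa (log2 -0.14 ± 0.08, edgeR adjusted p = 0.202) did not pass. Both chromosomal passenger genes were called lower. Birc5 had 129, 143 and 140.3 CPM with control siRNA plus EGF, against 170.3 and 159.9 CPM with control siRNA alone (log2 -0.27 ± 0.07, edgeR adjusted p = 0.0113). Aurkb, the kinase of that complex, had 204, 207 and 198 CPM with control siRNA plus EGF, against 225 and 228 CPM with control siRNA alone and only just passed (log2 -0.16 ± 0.06, edgeR adjusted p = 0.045); it did not with RLE scaling (0.0566) or DESeq2 (0.0592).

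Of the 5 checkpoint genes 2 fell: Bub1 (log2 -0.31 ± 0.06), a kinase at unattached kinetochores, and Mad2l1 (log2 -0.22 ± 0.07), the MAD2 gene. Ttk, the checkpoint kinase MPS1, did not pass (log2 -0.06 ± 0.08, edgeR adjusted p = 0.597). Neither did Bub3, the partner of BUB1 and BUBR1, at 209.7, 226 and 211 CPM with control siRNA plus EGF, against 239 and 219.5 CPM with control siRNA alone (log2 -0.09 ± 0.06, edgeR adjusted p = 0.315). Bub1b, which encodes BUBR1, had 205, 202 and 211 CPM with control siRNA plus EGF, against 189 and 202 CPM with control siRNA alone (log2 0.07 ± 0.06, edgeR adjusted p = 0.319). It was the 1 member with an estimate above 0. Of the 3 anaphase genes 1 fell, Cdc20, at 176, 188 and 176 CPM with control siRNA plus EGF, against 223 and 212 CPM with control siRNA alone (log2 -0.27 ± 0.06, edgeR adjusted p = 0.00303). Ube2c, at 185, 204 and 192 CPM with control siRNA plus EGF, against 235 and 191 CPM with control siRNA alone, overlapped between the groups (log2 -0.14 ± 0.10, edgeR adjusted p = 0.308), and the separase gene Espl1 did not pass (log2 -0.08 ± 0.06, edgeR adjusted p = 0.361). Top2a had 731, 720.5 and 724 CPM with control siRNA plus EGF, against 896 and 910.2 CPM with control siRNA alone and fell (log2 -0.32 ± 0.06, edgeR adjusted p = 0.000443). Mki67, which encodes Ki-67, a coat protein of mitotic chromosomes, had 665, 559 and 557 CPM with control siRNA plus EGF, against 668 and 798 CPM with control siRNA alone; the groups were apart, but its standard error was the largest of the members and it did not pass (log2 -0.30 ± 0.13, edgeR adjusted p = 0.103).

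The calls of 22 of the 29 members held in all 11 fits that left out 1 library. Without control siRNA replicate 1, Cdc25b, Cdc25c, Mad2l1, Cenpf, Aurkb and Birc5 did not pass (edgeR adjusted p = 0.0777 to 0.347). Without control siRNA replicate 2, Cdc25b, Cenpf, Aurkb and Ect2 did not (0.0508 to 0.164). Without replicate 1 of control siRNA with EGF, Cdc25b, Cdc25c, Mad2l1, Aurkb, Birc5 and Ect2 were lost (0.0548 to 0.0982) and Mki67 passed (0.0497). Without replicate 2 of that group, Cenpf, Aurkb and Ect2 were lost (0.0567 to 0.0668), and without replicate 3, Cdc25b, Cdc25c, Mad2l1, Cenpf, Aurkb and Ect2 were (0.051 to 0.129). Aurkb was also lost without Arid1a siRNAs replicate 2 (0.055) and without replicates 1 and 3 of Arid1a siRNAs with EGF (0.0565 and 0.0616). Other settings ended some of these calls too. With no filter on low counts, Cdc25b (0.109), Cenpf (0.0818) and Aurkb (0.123) were lost. Cdc25b was lost with DESeq2 too (0.0655). In a fit of only the groups compared, Cdc25b (0.105), Cdc25c (0.0621), Mad2l1 (0.0507) and Aurkb (0.0783) were lost and Mki67 passed (0.0432). With the replicate block Cdc25b (0.089), Cdc25c (0.0843), Mad2l1 (0.0627), Ect2 (0.0774) and Aurkb (0.0773) were lost.

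**Figure D2:**
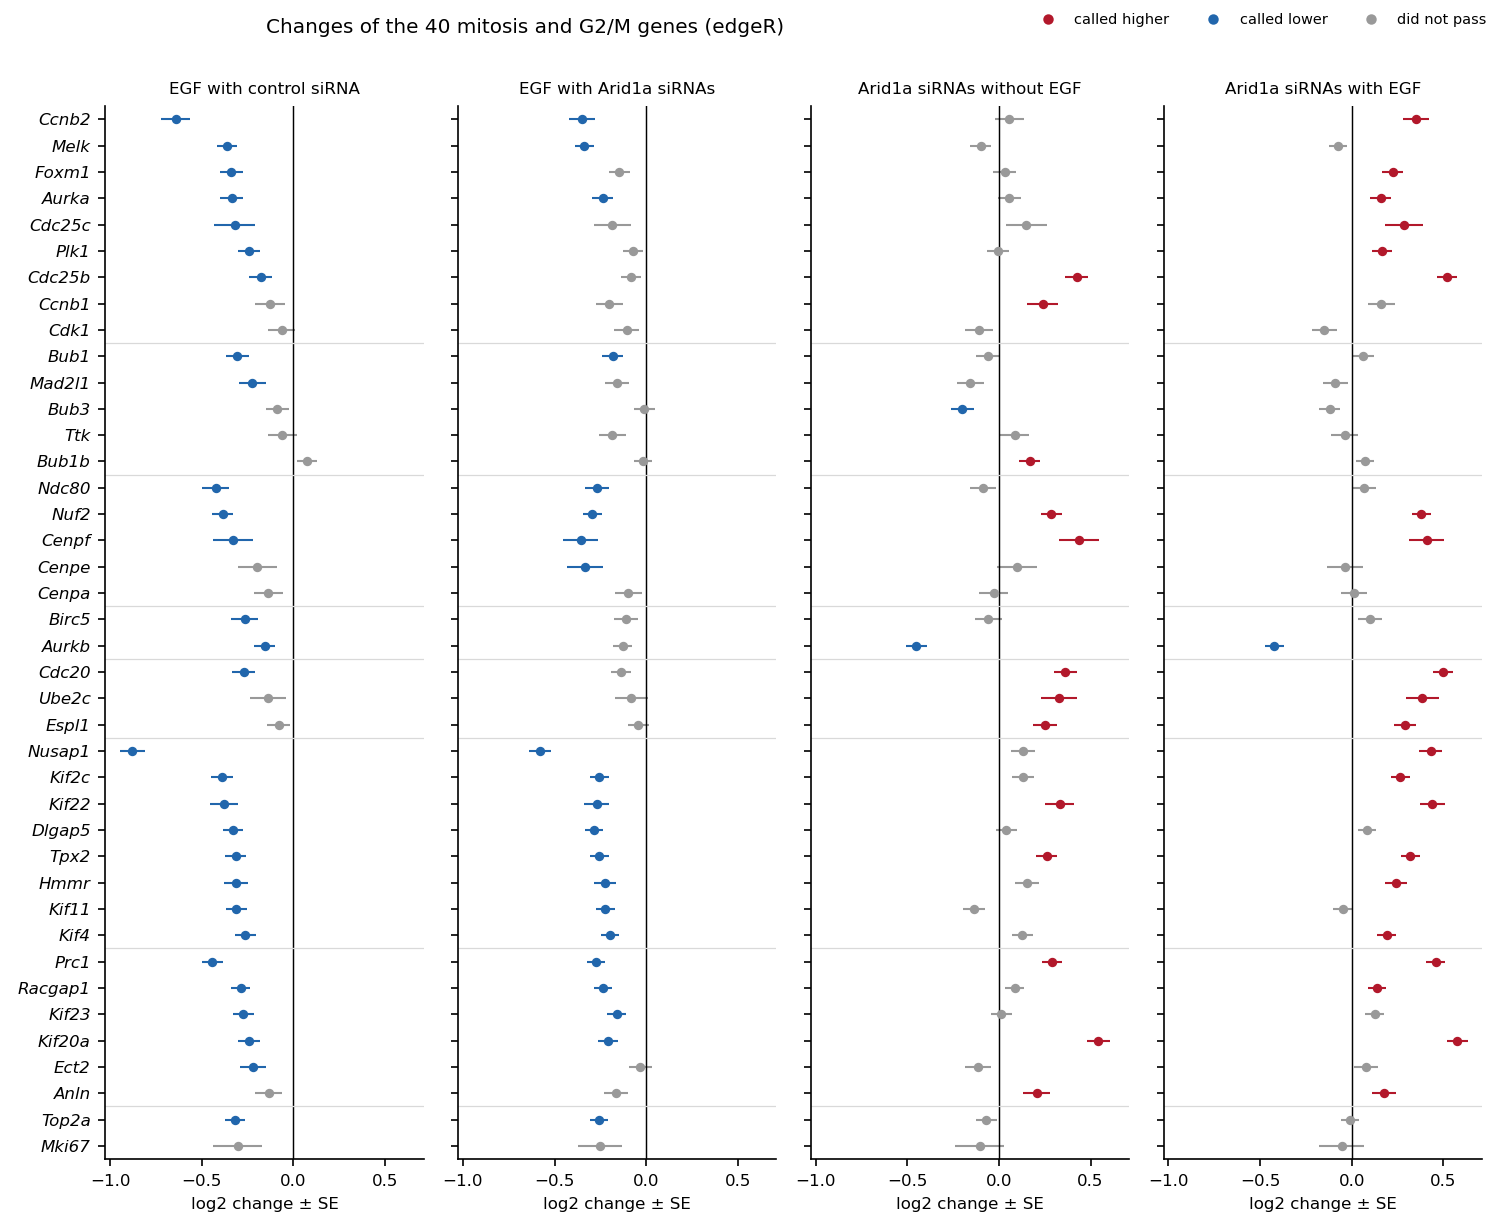
Log2 change ± standard error of each of the 40 genes (rows, by role) in 4 comparisons (panels), with genes called higher in red, called lower in blue and those that did not pass in grey. With EGF 29 members (control siRNA) and 21 members (Arid1a siRNAs) are blue and none is red; with the Arid1a siRNAs 13 (without EGF) and 21 (with EGF) are red, and Aurkb is blue in both.

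Without EGF, some members were higher with the Arid1a siRNAs and most did not pass. Of the 40 members 13 rose, 2 fell and 25 did not pass, against 18.8% of all genes called higher and 20.1% called lower (n = 3 against n = 2). The median log2 change was 0.09 (all genes tested -0.01), and the called rises lay between 0.17 and 0.54. In 18 members every library with Arid1a siRNAs lay above both control libraries, where 26.8% of all genes did. In 6 members every one lay below both, and the share of all genes below was not counted. The direction over all genes depended on the scaling: 2505 were called higher and 2685 lower with TMM, 3129 and 2025 with upper-quartile scaling, and 3052 and 2102 with library totals. With each of those last 2 scalings 18 members were called higher and 1 lower, with a median log2 change of 0.149 and 0.141.

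All 3 anaphase genes rose. Cdc20 had 283, 274 and 283 CPM with Arid1a siRNAs alone, against 223 and 212 CPM with control siRNA alone, without overlap (log2 0.36 ± 0.06, edgeR adjusted p = 0.000356). Ube2c had 268, 252 and 284 CPM with Arid1a siRNAs alone, against 235 and 191 CPM with control siRNA alone, the control libraries lying far apart but both below (log2 0.33 ± 0.10, edgeR adjusted p = 0.0185). Espl1, the protease gene that opens cohesin rings, rose by log2 0.25 ± 0.06 (edgeR adjusted p = 0.00662). Cytokinesis genes rose in 3 of 6. Kif20a had 151, 159.5 and 148 CPM with Arid1a siRNAs alone, against 107 and 103 CPM with control siRNA alone and showed the largest rise of the members, 1.46-fold (log2 0.54 ± 0.06, edgeR adjusted p = 1.02e-05). Prc1 had 206, 209.7 and 207 CPM with Arid1a siRNAs alone, against 163 and 177 CPM with control siRNA alone, again apart (log2 0.29 ± 0.06, edgeR adjusted p = 0.000872). Anln rose by log2 0.21 ± 0.07 (edgeR adjusted p = 0.038), and Kif23, Racgap1 and Ect2 did not pass.

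Of the 9 genes of mitotic entry 2 rose. Cdc25b had 95.5, 92.3 and 90.0 CPM with Arid1a siRNAs alone, against 70.6 and 67.3 CPM with control siRNA alone, well apart (log2 0.42 ± 0.06, edgeR adjusted p = 9.72e-05). Ccnb1 had 53.6, 52.3 and 57.7 CPM with Arid1a siRNAs alone, against 48.9 and 43.3 CPM with control siRNA alone (log2 0.24 ± 0.08, edgeR adjusted p = 0.0335). The other 7 did not pass, with estimates of -0.11 to 0.15. Among these, Ccnb2 had 107, 106 and 109 CPM with Arid1a siRNAs alone, against 109 and 97.3 CPM with control siRNA alone (log2 0.06 ± 0.08, edgeR adjusted p = 0.594), and Plk1 had 157, 151 and 149.6 CPM with Arid1a siRNAs alone, against 154 and 151 CPM with control siRNA alone (log2 -0.00 ± 0.06, edgeR adjusted p = 0.971). Both pairs of groups overlapped. Aurka had 179.9, 183 and 189.7 CPM with Arid1a siRNAs alone, against 181 and 173 CPM with control siRNA alone (log2 0.06 ± 0.06, edgeR adjusted p = 0.508), and Foxm1 had 198, 215 and 194 CPM with Arid1a siRNAs alone, against 189 and 207 CPM with control siRNA alone (log2 0.03 ± 0.06, edgeR adjusted p = 0.733). Melk stood below the controls in every library, at 142, 142 and 148 CPM with Arid1a siRNAs alone, against 156 and 153 CPM with control siRNA alone, but did not pass (log2 -0.10 ± 0.06, edgeR adjusted p = 0.178). Cdk1, at 376, 349.7 and 392 CPM with Arid1a siRNAs alone, against 431 and 372 CPM with control siRNA alone, overlapped (log2 -0.11 ± 0.07, edgeR adjusted p = 0.275).

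Of the kinetochore genes, Nuf2 and Cenpf rose. Nuf2 had 106, 107 and 112 CPM with Arid1a siRNAs alone, against 91.3 and 86.7 CPM with control siRNA alone (log2 0.29 ± 0.06, edgeR adjusted p = 0.0013), while Ndc80, which encodes its partner in the complex, did not pass (log2 -0.09 ± 0.07, edgeR adjusted p = 0.379). Cenpf rose by log2 0.44 ± 0.11 (edgeR adjusted p = 0.00584). The spindle genes Kif22 (log2 0.33 ± 0.08) and Tpx2 (log2 0.26 ± 0.06) rose and the other 6 did not pass. Among those 6, Nusap1 had 104, 109 and 104 CPM with Arid1a siRNAs alone, against 102 and 90.9 CPM with control siRNA alone, with every library above the controls (log2 0.13 ± 0.07, edgeR adjusted p = 0.138), and Kif11 had an estimate below 0 (log2 -0.14 ± 0.06, edgeR adjusted p = 0.0811).

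The 2 members that fell were Aurkb and Bub3. Aurkb had 160.1, 164 and 174 CPM with Arid1a siRNAs alone, against 225 and 228 CPM with control siRNA alone, 1.37-fold lower and without overlap (log2 -0.45 ± 0.06, edgeR adjusted p = 2.77e-05), while Birc5, its partner in the passenger complex, had 151, 153 and 173 CPM with Arid1a siRNAs alone, against 170.3 and 159.9 CPM with control siRNA alone (log2 -0.06 ± 0.07, edgeR adjusted p = 0.575). Bub3 had 194, 194 and 211 CPM with Arid1a siRNAs alone, against 239 and 219.5 CPM with control siRNA alone (log2 -0.20 ± 0.06, edgeR adjusted p = 0.0241), and it was not called with upper-quartile scaling (edgeR adjusted p = 0.123) or library totals (0.0872). Bub1b had 222, 222 and 214 CPM with Arid1a siRNAs alone, against 189 and 202 CPM with control siRNA alone and rose (log2 0.17 ± 0.06, edgeR adjusted p = 0.0278), whereas Bub1, Mad2l1 and Ttk did not pass. Neither chromosome structure gene passed, with Top2a at 878, 896 and 809 CPM with Arid1a siRNAs alone, against 896 and 910.2 CPM with control siRNA alone (log2 -0.07 ± 0.06, edgeR adjusted p = 0.358) and Mki67 at 719, 747 and 577 CPM with Arid1a siRNAs alone, against 668 and 798 CPM with control siRNA alone (log2 -0.11 ± 0.14, edgeR adjusted p = 0.575).

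Of the 13 rises 9 held with any 1 library left out, as did the fall of Aurkb. Without control siRNA replicate 1, Bub1b, Bub3 and Anln were lost (edgeR adjusted p = 0.176 to 0.223). Without replicate 2 of that group, Ccnb1 (0.234), Ube2c (0.203) and Anln (0.0611) were, and Mad2l1 (0.0449, lower) and Hmmr (0.0339) passed. Bub1b, Bub3 and Anln were also lost without Arid1a siRNAs replicate 1 (0.0545 to 0.117) or replicate 2 (0.0554 to 0.0936), where Kif2c passed (0.0411). Without Arid1a siRNAs replicate 3, Ccnb1 (0.0915) and Ube2c (0.0609) were lost and Hmmr passed (0.033), and Anln was lost without replicate 1 of control siRNA with EGF (0.0534). In a fit of only the groups compared, Ccnb1 (0.0732), Bub1b (0.106), Bub3 (0.106) and Anln (0.0968) were lost. Ccnb1 (0.0883) and Bub1b (0.0663) were with the replicate block as well, and Bub1b (0.0515) with no filter on low counts.

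With EGF present, more members were called higher with the Arid1a siRNAs. Of the 40, 21 rose, 1 fell (Aurkb) and 18 did not pass, against 23.7% of all genes called higher and 23.2% called lower (n = 3 each). The median log2 change was 0.16 (all genes tested 0.00). In 24 members every library with Arid1a siRNAs and EGF lay above all 3 with control siRNA and EGF, where 28.8% of all genes did. In 3 members every one lay below, and the share of all genes below was not counted. The direction over all genes depended on the scaling here too: 3164 were called higher and 3097 lower with TMM. With upper-quartile scaling they were 3661 and 2613, where 24 members were higher, and with library totals 3792 and 2485, where 25 were. Of the 13 members called higher without EGF 11 were called higher here too, but not Ccnb1 and Bub1b. The share of all genes called higher in both was not counted. These siRNA comparisons share no library, and whether the effect differed with EGF is the test of the difference between the EGF responses, reported after them.

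The largest rises were those of Kif20a, Cdc25b and Cdc20. Kif20a had 138, 128 and 131 CPM with Arid1a siRNAs plus EGF, against 87.7, 92.1 and 86.3 CPM with control siRNA plus EGF (log2 0.58 ± 0.05, edgeR adjusted p = 1.15e-06). Cdc25b had 85.9, 89.6 and 86.7 CPM with Arid1a siRNAs plus EGF, against 60.0, 63.4 and 59.4 CPM with control siRNA plus EGF (log2 0.52 ± 0.06, edgeR adjusted p = 3.55e-06), and Cdc20 had 250.3, 272 and 242 CPM with Arid1a siRNAs plus EGF, against 176, 188 and 176 CPM with control siRNA plus EGF (log2 0.50 ± 0.06, edgeR adjusted p = 4.92e-06). Without EGF their log2 changes were 0.54, 0.42 and 0.36. Prc1 had 171, 170.4 and 174 CPM with Arid1a siRNAs plus EGF, against 127, 122 and 126 CPM with control siRNA plus EGF (log2 0.46 ± 0.05, edgeR adjusted p = 4.18e-06). Ube2c had 245, 287 and 227 CPM with Arid1a siRNAs plus EGF, against 185, 204 and 192 CPM with control siRNA plus EGF, the libraries with Arid1a siRNAs spread widely but all above (log2 0.38 ± 0.09, edgeR adjusted p = 0.00278). Espl1 (log2 0.29 ± 0.06), Anln (log2 0.18 ± 0.07) and Racgap1 (log2 0.14 ± 0.05) rose too, which made 3 of 3 anaphase genes and 4 of 6 cytokinesis genes.

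Of the 9 genes of mitotic entry 6 rose here, Cdc25b and 5 that had not passed without EGF. Ccnb2 had 82.5, 90.6 and 79.3 CPM with Arid1a siRNAs plus EGF, against 61.8, 71.9 and 64.3 CPM with control siRNA plus EGF (log2 0.35 ± 0.07, edgeR adjusted p = 0.00107). Foxm1 had 184, 179 and 185 CPM with Arid1a siRNAs plus EGF, against 162, 158 and 149.7 CPM with control siRNA plus EGF (log2 0.22 ± 0.06, edgeR adjusted p = 0.00495). Plk1 had 143, 153 and 139.8 CPM with Arid1a siRNAs plus EGF, against 130.1, 135 and 123 CPM with control siRNA plus EGF (log2 0.17 ± 0.05, edgeR adjusted p = 0.0221), and Aurka had 152, 164 and 154 CPM with Arid1a siRNAs plus EGF, against 132, 149 and 139 CPM with control siRNA plus EGF (log2 0.16 ± 0.06, edgeR adjusted p = 0.034). In each of these 4 the groups did not overlap. Cdc25c rose by log2 0.28 ± 0.10 (edgeR adjusted p = 0.035). Ccnb1, at 46.7, 48.5 and 46.9 CPM with Arid1a siRNAs plus EGF, against 38.7, 44.9 and 43.4 CPM with control siRNA plus EGF, was higher in every library but did not pass (log2 0.16 ± 0.07, edgeR adjusted p = 0.0913). Melk, at 110.4, 116 and 116 CPM with Arid1a siRNAs plus EGF, against 119.5, 124 and 117 CPM with control siRNA plus EGF, did not pass (log2 -0.08 ± 0.05, edgeR adjusted p = 0.245), nor did Cdk1, at 331, 367 and 339 CPM with Arid1a siRNAs plus EGF, against 361, 400.1 and 390.5 CPM with control siRNA plus EGF (log2 -0.15 ± 0.07, edgeR adjusted p = 0.0819).

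Spindle genes rose in 6 of 8. Nusap1 had 68.1, 73.8 and 69.9 CPM with Arid1a siRNAs plus EGF, against 54.0, 53.1 and 49.96 CPM with control siRNA plus EGF (log2 0.43 ± 0.06, edgeR adjusted p = 6.81e-05), and Kif22 (log2 0.44 ± 0.07), Tpx2 (log2 0.32 ± 0.05), Kif2c (log2 0.27 ± 0.05), Hmmr (log2 0.24 ± 0.06) and Kif4 (log2 0.19 ± 0.05) rose with it. Kif11 (log2 -0.05 ± 0.05, edgeR adjusted p = 0.493) and Dlgap5 (log2 0.08 ± 0.05, edgeR adjusted p = 0.191) did not pass. Nuf2 had 87.9, 89.7 and 88.1 CPM with Arid1a siRNAs plus EGF, against 68.3, 68.7 and 67.3 CPM with control siRNA plus EGF, again wholly above (log2 0.38 ± 0.05, edgeR adjusted p = 3.88e-05), Cenpf rose by log2 0.41 ± 0.10, and Ndc80, Cenpa and Cenpe did not pass. Aurkb had 147, 158 and 150.3 CPM with Arid1a siRNAs plus EGF, against 204, 207 and 198 CPM with control siRNA plus EGF, 1.34-fold lower (log2 -0.42 ± 0.05, edgeR adjusted p = 1.26e-05), and Birc5 had 139, 153 and 149 CPM with Arid1a siRNAs plus EGF, against 129, 143 and 140.3 CPM with control siRNA plus EGF (log2 0.10 ± 0.07, edgeR adjusted p = 0.242). No checkpoint gene passed: Bub1b had 221, 209.6 and 219 CPM with Arid1a siRNAs plus EGF, against 205, 202 and 211 CPM with control siRNA plus EGF (log2 0.07 ± 0.05, edgeR adjusted p = 0.238) and Bub3 had 191, 207 and 197 CPM with Arid1a siRNAs plus EGF, against 209.7, 226 and 211 CPM with control siRNA plus EGF (log2 -0.12 ± 0.06, edgeR adjusted p = 0.102). Top2a, at 719.7, 694 and 748 CPM with Arid1a siRNAs plus EGF, against 731, 720.5 and 724 CPM with control siRNA plus EGF, and Mki67, at 628, 487 and 600.3 CPM with Arid1a siRNAs plus EGF, against 665, 559 and 557 CPM with control siRNA plus EGF, overlapped between the groups (log2 -0.01 ± 0.05 and log2 -0.06 ± 0.12, edgeR adjusted p = 0.905 and 0.738).

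Libraries of these 2 groups with the same replicate number deviated together. A fit of the 2 groups with the number as a block was chosen after the data were seen. It called 8362 of all genes, 4183 higher and 4179 lower, against 6261 in the fit of all 11 libraries. Of the members it called 30, 27 higher and 3 lower. It added Ccnb1 (log2 0.17, edgeR adjusted p = 0.00607), Kif23 (0.13, 0.00541), Birc5 (0.11, 0.0103), Dlgap5 (0.09, 0.0321), Bub1b (0.08, 0.0347) and Ect2 (0.08, 0.0352) as higher, and Cdk1 (-0.14, 1.22e-05) and Bub3 (-0.12, 0.00181) as lower. The block over all 11 libraries added none of these and lost Aurka (0.0509).

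Of the 21 rises 16 held with any 1 library left out, as did the fall of Aurkb. Without replicate 1 of control siRNA with EGF, Cdc25c, Plk1, Aurka, Anln and Racgap1 were lost (edgeR adjusted p = 0.0541 to 0.155), without replicate 2 Anln (0.0553) and Racgap1 (0.079), and without replicate 3 Cdc25c, Plk1, Aurka and Anln (0.0898 to 0.124). Without replicate 1 of Arid1a siRNAs with EGF, Cdc25c (0.183) and Anln (0.142) were lost; without replicate 2, Cdc25c, Plk1, Aurka and Racgap1 were (0.0529 to 0.127) and Cdk1 passed as lower (0.0436); and without replicate 3, Anln (0.0771) and Racgap1 (0.0842) were lost. Kif23 passed without control siRNA replicate 1 (0.0449). With no filter on low counts, Plk1 (0.07), Aurka (0.0911), Anln (0.0789) and Racgap1 (0.115) were lost and Cdk1 passed as lower (0.0318). In a fit of only the groups compared, Cdk1 passed as lower (0.0343) and Kif23 as higher (0.0491). Anln was also lost with DESeq2 (0.0533) and with limma on FPKM (0.0539).

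**Figure D3:**
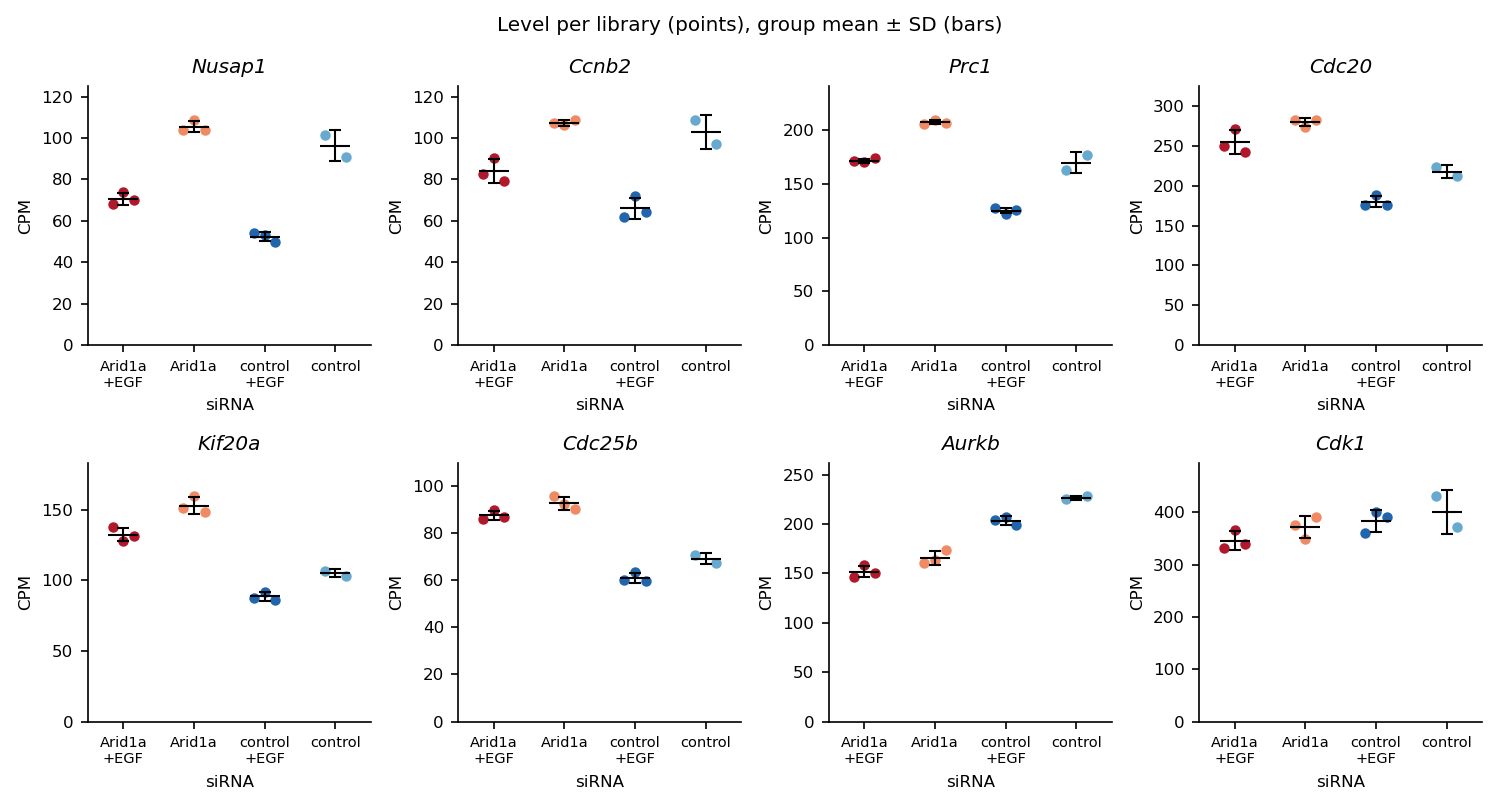
Level in CPM of 8 members in each library (points), with the mean and SD of each group (bars), for Arid1a siRNAs with EGF, Arid1a siRNAs, control siRNA with EGF and control siRNA from left to right. Nusap1 and Ccnb2 drop with EGF under both siRNAs, Kif20a, Cdc25b and Cdc20 stand higher with the Arid1a siRNAs whether or not EGF was given, Aurkb stands lower with them, and the Cdk1 groups overlap.

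Mitotic genes were lower with EGF in cells with Arid1a siRNAs as well. Of the 40 members 21 fell, none rose and 19 did not pass, against 10.4% of all genes called lower and 13.0% called higher (n = 3 each). All 40 estimates lay below 0, with a median log2 change of -0.20 (all genes tested -0.01). In 27 members every library with Arid1a siRNAs and EGF lay below all 3 with Arid1a siRNAs alone, where 19.0% of all genes did. The direction over all genes again depended on the scaling: 1734 were called higher and 1385 lower with TMM, and 1394 and 1999 with library totals, where 28 members were called, all lower. Those added were Foxm1, Cdc20, Aurkb, Ccnb1, Mad2l1, Anln and Ttk. This comparison shares no library with that of EGF under control siRNA. In both, 20 members were called, which is all of the 21 called here but Cenpe, and 20 of the 29 called there. The share of all genes called lower in both was not counted.

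Nusap1 was again the member that fell most, to 68.1, 73.8 and 69.9 CPM with Arid1a siRNAs plus EGF, against 104, 109 and 104 CPM with Arid1a siRNAs alone (log2 -0.58 ± 0.06, edgeR adjusted p = 1.22e-05). Melk had 110.4, 116 and 116 CPM with Arid1a siRNAs plus EGF, against 142, 142 and 148 CPM with Arid1a siRNAs alone (log2 -0.34 ± 0.05, edgeR adjusted p = 0.000242), and Nuf2 had 87.9, 89.7 and 88.1 CPM with Arid1a siRNAs plus EGF, against 106, 107 and 112 CPM with Arid1a siRNAs alone (log2 -0.29 ± 0.05, edgeR adjusted p = 0.000838). Ccnb2 had 82.5, 90.6 and 79.3 CPM with Arid1a siRNAs plus EGF, against 107, 106 and 109 CPM with Arid1a siRNAs alone (log2 -0.35 ± 0.07, edgeR adjusted p = 0.00229). In these 4 no libraries overlapped. All 8 spindle genes fell, by -0.20 (Kif4) to -0.58 (Nusap1) on the log2 scale. Prc1 had 171, 170.4 and 174 CPM with Arid1a siRNAs plus EGF, against 206, 209.7 and 207 CPM with Arid1a siRNAs alone (log2 -0.27 ± 0.05, edgeR adjusted p = 0.00102), Kif20a had 138, 128 and 131 CPM with Arid1a siRNAs plus EGF, against 151, 159.5 and 148 CPM with Arid1a siRNAs alone (log2 -0.21 ± 0.05, edgeR adjusted p = 0.0118), and Racgap1 (log2 -0.24 ± 0.05) and Kif23 (log2 -0.16 ± 0.05) fell as well. Top2a had 719.7, 694 and 748 CPM with Arid1a siRNAs plus EGF, against 878, 896 and 809 CPM with Arid1a siRNAs alone, also apart (log2 -0.26 ± 0.05, edgeR adjusted p = 0.00179), and Aurka had 152, 164 and 154 CPM with Arid1a siRNAs plus EGF, against 179.9, 183 and 189.7 CPM with Arid1a siRNAs alone (log2 -0.24 ± 0.06, edgeR adjusted p = 0.00728). Among kinetochore genes Ndc80 (log2 -0.27 ± 0.07), Cenpf (log2 -0.36 ± 0.10) and Cenpe (log2 -0.33 ± 0.10) fell with Nuf2, and among checkpoint genes Bub1 did (log2 -0.18 ± 0.06).

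The other 9 members that fell with EGF under control siRNA did not pass here. Foxm1 had 184, 179 and 185 CPM with Arid1a siRNAs plus EGF, against 198, 215 and 194 CPM with Arid1a siRNAs alone (log2 -0.15 ± 0.06, edgeR adjusted p = 0.0777), and Cdc20 had 250.3, 272 and 242 CPM with Arid1a siRNAs plus EGF, against 283, 274 and 283 CPM with Arid1a siRNAs alone (log2 -0.14 ± 0.05, edgeR adjusted p = 0.0896); both were below in every library. Aurkb, at 147, 158 and 150.3 CPM with Arid1a siRNAs plus EGF, against 160.1, 164 and 174 CPM with Arid1a siRNAs alone, was too (log2 -0.13 ± 0.05, edgeR adjusted p = 0.0918). Cdc25b had 85.9, 89.6 and 86.7 CPM with Arid1a siRNAs plus EGF, against 95.5, 92.3 and 90.0 CPM with Arid1a siRNAs alone (log2 -0.08 ± 0.05, edgeR adjusted p = 0.305), Plk1 had 143, 153 and 139.8 CPM with Arid1a siRNAs plus EGF, against 157, 151 and 149.6 CPM with Arid1a siRNAs alone (log2 -0.07 ± 0.05, edgeR adjusted p = 0.389), and Birc5 had 139, 153 and 149 CPM with Arid1a siRNAs plus EGF, against 151, 153 and 173 CPM with Arid1a siRNAs alone (log2 -0.11 ± 0.07, edgeR adjusted p = 0.265). Cdc25c, Mad2l1 and Ect2 had adjusted p-values of 0.216, 0.106 and 0.782 in the same edgeR fit. Of the members that had not passed under control siRNA, Ccnb1 had 46.7, 48.5 and 46.9 CPM with Arid1a siRNAs plus EGF, against 53.6, 52.3 and 57.7 CPM with Arid1a siRNAs alone (log2 -0.20 ± 0.07, edgeR adjusted p = 0.0644) and Cdk1 had 331, 367 and 339 CPM with Arid1a siRNAs plus EGF, against 376, 349.7 and 392 CPM with Arid1a siRNAs alone (log2 -0.11 ± 0.07, edgeR adjusted p = 0.289). Ube2c (log2 -0.08 ± 0.09, edgeR adjusted p = 0.564), Bub1b (log2 -0.02 ± 0.05, edgeR adjusted p = 0.839) and Bub3 (log2 -0.01 ± 0.06, edgeR adjusted p = 0.934) did not pass either, nor did Mki67, at 628, 487 and 600.3 CPM with Arid1a siRNAs plus EGF, against 719, 747 and 577 CPM with Arid1a siRNAs alone (log2 -0.25 ± 0.12, edgeR adjusted p = 0.162).

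Of the 21 falls 13 held with any 1 library left out. Without Arid1a siRNAs replicate 2, 14 members were called, and Bub1, Cenpe, Cenpf, Kif4, Hmmr, Kif20a and Kif23 were lost (edgeR adjusted p = 0.0508 to 0.104). Without replicate 1 of that group Bub1, Cenpe, Cenpf and Kif23 were lost (0.0649 to 0.107), and without replicate 3 none was and Foxm1 (0.0452) and Anln (0.00955) passed. Of the libraries with Arid1a siRNAs and EGF, leaving out replicate 1 lost Bub1, Kif22 and Kif23 (0.0602 to 0.128), replicate 2 lost Cenpe, Cenpf, Hmmr and Kif23 (0.0509 to 0.0893) while Mad2l1 (0.0305) and Cdc20 (0.0336) passed, and replicate 3 lost Bub1, Cenpe, Cenpf and Kif23 (0.0533 to 0.0773). Ccnb1 passed without control siRNA replicate 1 (0.0416). Bub1 was also lost with the replicate block (0.0574) and in a fit of only the groups compared (0.0611). Kif23 was lost with these (0.0713 and 0.0539) and with no filter on low counts (0.0634).

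Whether EGF acted differently under the 2 siRNAs was tested as the difference between the EGF responses, which equals the difference between the siRNA effects with and without EGF. No member was called by edgeR, by DESeq2 or by limma-voom, against 0.944% of all genes by edgeR. At an unadjusted p under 0.05 there were 4 of the 40 members by edgeR, all above 0, a share near the 9.72% of all genes. The estimate was above 0, that is, a smaller fall with Arid1a siRNAs, in 33 of 40 members and in 54.6% of all genes, with a median log2 difference of 0.07 (all genes tested 0.02). Nusap1 had the smallest p (log2 0.30 ± 0.09, edgeR adjusted p = 0.202, 95% interval 0.102 to 0.495), followed by Ccnb2 (log2 0.29 ± 0.11, edgeR adjusted p = 0.313, 0.0663 to 0.518) and Prc1 (log2 0.17 ± 0.07, edgeR adjusted p = 0.464, 0.00977 to 0.326). For Kif20a, which rose most with the siRNAs, the difference was log2 0.03 ± 0.08 (edgeR adjusted p = 0.965), with an interval of -0.14 to 0.208. These intervals hold the differences compatible with the libraries, without adjustment for the number of genes tested. Those of Nusap1, Ccnb2 and Prc1, which were taken for their smallest p, lie above 0, and that of Kif20a spans 0. The absence of calls does not show that the responses were alike.

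Across the 4 comparisons the members followed many patterns of calls. Only some are given here, and no share of all genes was counted for any. Aurkb alone was lower with EGF under control siRNA and lower with the Arid1a siRNAs both with and without EGF. A group of 6 (Cenpf, Nuf2, Kif22, Tpx2, Kif20a and Prc1) were lower with EGF under both siRNAs and higher with the Arid1a siRNAs both with and without EGF. Another 7 were lower with EGF under both siRNAs and higher with the Arid1a siRNAs where EGF was present but not where it was absent (Ccnb2, Aurka, Kif2c, Kif4, Nusap1, Hmmr and Racgap1), and 7 were lower with EGF under both and called in neither siRNA comparison (Melk, Bub1, Ndc80, Kif11, Dlgap5, Kif23 and Top2a). A group of 3 (Ube2c, Espl1 and Anln) were higher with the Arid1a siRNAs in both and never called with EGF. The 4 members called nowhere in the fit of all 11 libraries were Cdk1, Ttk, Cenpa and Mki67. The patterns depend on the scaling. With upper-quartile scaling or library totals, Kif2c, Kif4, Nusap1, Hmmr and Racgap1, which are 5 of the 7 called higher only where EGF was present, were called higher without EGF as well (edgeR adjusted p = 0.0141 to 0.0443). The comparisons share groups, and these patterns set the calls side by side without a test of their differences.

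Further G2/M genes were called lower with EGF more often than higher. Of 60 tested further G2/M genes, 31 fell and 3 rose (Cks1b, Zwint and Fam64a) with EGF under control siRNA (51.7% and 5%, against 18.8% of all genes lower and 16.8% higher), among the falls those of the condensin gene Ncapd2 (log2 -0.48 ± 0.05) and the spindle motor gene Kifc1 (-0.58 ± 0.06), and 24 fell (40%, against 10.4% of all genes) and none rose with EGF under Arid1a siRNAs. With the Arid1a siRNAs 18 rose and 9 fell in the presence of EGF (30% and 15%, against 23.7% and 23.2% of all genes), and 12 rose and 8 fell without it (20% and 13.3%, against 18.8% and 20.1%). The share that rose without EGF was near that of all genes. Among those that fell were Fbxo5, an inhibitor of the anaphase-promoting complex (log2 -0.64 ± 0.08 with EGF and -0.84 ± 0.08 without), and the cyclin F gene Ccnf (-0.46 ± 0.05 and -0.57 ± 0.06). DNA replication and S phase genes gave other counts. Of 46 tested, 10 fell and none rose with EGF under control siRNA, and 7 fell and none rose under Arid1a siRNAs. The falls are 21.7% and 15.2% of the list, beside 18.8% and 10.4% of all genes. With the Arid1a siRNAs 19 fell and 7 rose in the presence of EGF (41.3% and 15.2%, against 23.2% and 23.7% of all genes), and 21 fell and 3 rose without it (45.7% and 6.52%, against 20.1% and 18.8%). Their median log2 changes with the siRNAs were -0.11 and -0.12, below 0 where those of the members were above it. Named members of that list were the ribonucleotide reductase gene Rrm2 (-0.53 ± 0.05 with EGF and -0.61 ± 0.05 without) and E2f2 (-0.72 ± 0.06 and -0.78 ± 0.07).

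Genes that regulate the programme were called in both directions, as were all genes. Of 19 tested DREAM, MuvB and RB family genes, 6 fell and 3 rose with EGF under control siRNA (31.6% and 15.8%, against 18.8% and 16.8% of all genes), the falls including the pocket protein genes Rb1 (log2 -0.65 ± 0.10) and Rbl2 (-0.72 ± 0.12), and 4 fell and 5 rose under Arid1a siRNAs (21.1% and 26.3%, against 10.4% and 13.0%), where the CDK inhibitor gene Cdkn1a had 0.78 ± 0.09. With the Arid1a siRNAs 7 fell and 5 rose in the presence of EGF (36.8% and 26.3%, against 23.2% and 23.7% of all genes), and 9 fell and 3 rose without it (47.4% and 15.8%, against 20.1% and 18.8%). The E2F partner gene Tfdp1 was lower by -0.62 ± 0.06 and -0.66 ± 0.07, and E2f4, a repressor E2F of DREAM, by -0.52 ± 0.06 and -0.46 ± 0.07. Subunits and partners of the anaphase-promoting complex other than Cdc20 and Ube2c changed in few cases. Of 14 tested, 2 rose and 1 fell with the Arid1a siRNAs in each comparison, the fall being that of Fzr1, the activator that follows CDC20 (-0.34 ± 0.06 with EGF and -0.44 ± 0.07 without). With EGF 4 fell and 1 rose under control siRNA and 2 fell and 1 rose under Arid1a siRNAs. The rises with the siRNAs are 14.3% of the list, beside 23.7% of all genes with EGF and 18.8% without, and the falls with EGF are 28.6% and 14.3%, beside 18.8% and 10.4% of all genes. All values with a standard error in this paragraph and the one before it are log2 changes from the same edgeR fit, and no gene of these 4 lists was called in the difference between the EGF responses.

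Within groups, the members' levels moved with the length of their transcripts, to a degree that differed between libraries. Over the 40 members, the deviation of a library from its group mean had a Spearman correlation with the longest coding transcript (GENCODE vM21) of -0.62 in Arid1a siRNAs replicate 3, 0.69 in Arid1a siRNAs replicate 2 and -0.63 in replicate 2 of Arid1a siRNAs with EGF. Over 11643 genes the values were -0.56, 0.51 and -0.56. These libraries were those with member values furthest from 0. The other libraries had member values from -0.51 to 0.55. Among them, replicate 3 of control siRNA with EGF had -0.06 and Arid1a siRNAs replicate 1 had 0.27. These are correlations across genes, which share libraries and are no replicates, and deviations within a group sum to 0. The longest members, Cenpf and Mki67, were among the most variable: Cenpf had 268, 232 and 249.6 CPM with Arid1a siRNAs plus EGF, 357, 336 and 267 CPM with Arid1a siRNAs alone, 207, 185 and 172 CPM with control siRNA plus EGF, and 237 and 235 CPM with control siRNA alone. Between groups the correlations were nearer 0 than in the libraries furthest from it. They were -0.22 and -0.12 for the Arid1a siRNAs with and without EGF, and -0.05 and 0.16 for EGF under Arid1a siRNAs and under control siRNA. The difference between the EGF responses had -0.31 (all genes -0.09), further from 0 than the within-group -0.06 and 0.27. Among the 20 members of 1466 to 3398 bases 16 fell with EGF under control siRNA, and among the 20 of 3414 to 11130 bases 13 did, with medians of -0.28 in each. With the Arid1a siRNAs in the presence of EGF, 12 of the shorter members rose (median 0.164) and 9 of the longer (median 0.0807). The part of length in single calls was not tested.

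**Figure D4:**
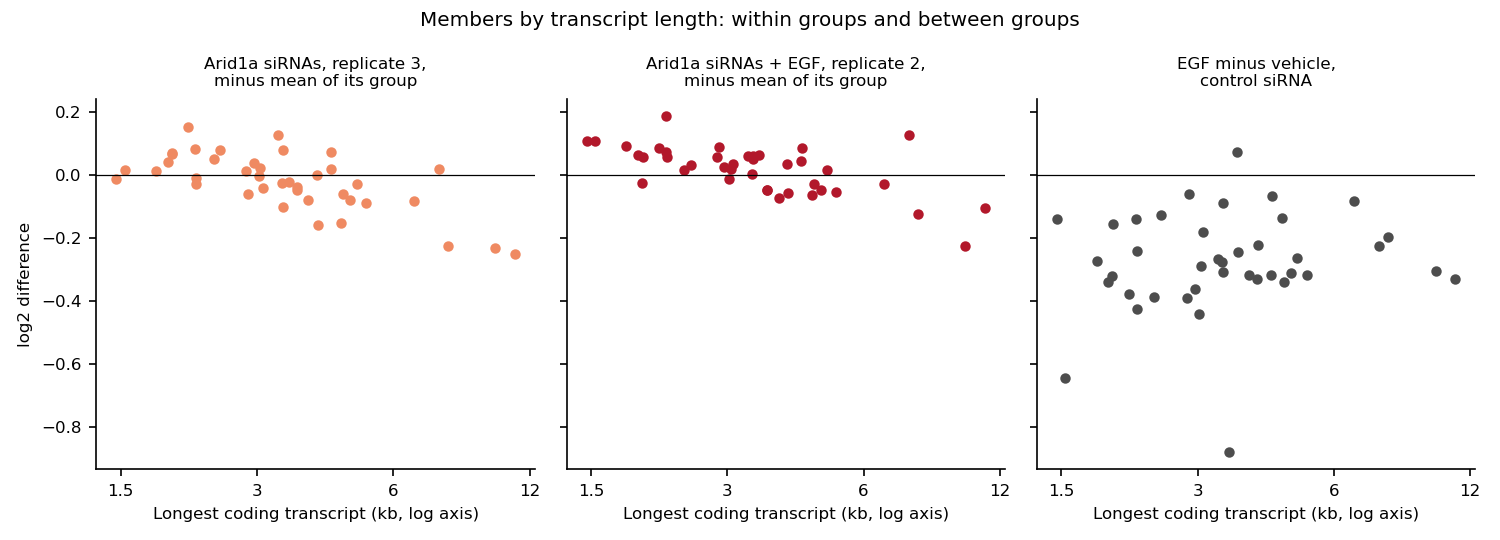
Log2 difference of each of the 40 members (points) against its longest coding transcript in kilobases (log axis). The left and middle panels show replicate 3 of Arid1a siRNAs and replicate 2 of Arid1a siRNAs with EGF minus their group means. Longer members lie lower there (Spearman -0.62 and -0.63), and these libraries are among those with values furthest from 0. The right panel shows the change with EGF under control siRNA (Spearman 0.16).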

How the data were processed

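Polyadenylated RNA of the 11 libraries was made into libraries with the TruSeq RNA kit v2, per the labels' protocols. This kit keeps no strand information, so a gene and its antisense transcript cannot be told apart. Per the submitters' processing notes, reads were aligned with TopHat2 2.1.1 to mm9 and counted with HTSeq 0.9.1, and Cuffdiff 2.2.1.5 and Cuffnorm 2.2.1.2 are named as well. The deposited count tables hold raw read counts per gene symbol for each library. The deposited series table holds FPKM values as the authors normalised them, in a way not given in the sources used here. The labels list 2 control siRNA libraries but the table has 3 such columns, which were left out; its 9 remaining columns are known by group.

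Counts were fitted with edgeR 4.0.16 (R 4.3.3): filterByExpr (minimum count 10, minimum total 15) kept 13343 genes (57.31%) with 99.955% of reads, libraries were scaled with TMM, and 4 group means were fitted by the robust quasi-likelihood method (7 residual degrees of freedom, biological coefficient of variation 7%). P-values are two-sided and adjusted over all genes tested. Levels per library are CPM values, whose precision the 10279763 to 19773007 reads per library limit. The tests were run first on simulated data. Alternatives were DESeq2 1.42.0, limma-voom (limma 3.58.1), limma on log2(FPKM + 1), other scalings, no filter, only the groups compared, a replicate block and leaving out each library. A check for copied libraries within groups gave a chi-square per degree of freedom of 1.57 to 10.9 over genes with at least 20 reads.

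Replicate numbers come from the titles. The same-number pairs of Arid1a siRNAs with EGF and control siRNA with EGF had correlations of 0.19, 0.377 and 0.162 between their departures from the group mean, each above 0.1, while pairs with different numbers there had -0.241 to 0.0975. In no other pair of groups were all same-number pairs above 0.1. Over all groups 4 of 15 same-number pairs were, and 12 of 30 with different numbers, up to 0.464, so deviations are also shared across numbers. By that threshold the numbers were used as a block in that comparison alone, which does not show that the libraries were paired. Over all genes, deviations in these groups also correlated with transcript length. In replicate 1 the Spearman values were 0.35 with control siRNA plus EGF and 0.45 with Arid1a siRNAs plus EGF. In replicate 2 they were -0.38 and -0.56. The part of length in the shared deviations was not tested.

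Members named with values in every library are 12 core genes (Ccnb1, Cdk1, Plk1, Aurka, Aurkb, Cdc20, Ube2c, Foxm1, Mki67, Top2a, Birc5 and Bub1b), the 3 with the smallest p in each comparison and those called against the direction of most, and the values of Cenpf were added after they were seen. Of other lists, only genes among the 3 with the smallest p of a comparison are given with values. The members, roles and lists were chosen with earlier results of these data known. Promoter windows and their coordinates are those of RefSeq on GRCm38.p6, another build than mm9, and no other coordinates are given.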

Additional observations from a re-analysis of the deposited data

How the results depend on the processing

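The number of members called kept within 1.5 times its value under every alternative. For EGF with control siRNA it was 29, and 24 to 29 with other scalings, filters, tools and the replicate block; for the Arid1a siRNAs with EGF 22, and 19 to 30; for the Arid1a siRNAs without EGF 15, and 11 to 19; for EGF with Arid1a siRNAs 21, and 19 to 28; and for the difference between the EGF responses 0 throughout. Leaving out 1 library gave 23 to 29, 17 to 23, 12 to 15, 14 to 23 and 0 to 0 members in that order, and 3648 to 5039, 5382 to 6549, 3904 to 5279, 2217 to 3399 and 55 to 153 of all genes tested, against 4744, 6261, 5190, 3119 and 126 from all 11 libraries; the lowest count of the last, 55, came without replicate 1 of control siRNA with EGF. With the replicate number as a block over all libraries 56 genes were called in the difference between the EGF responses; the cause was not tested. That block moved no count of members by more than 1.5 times: 24, 21, 13, 19 and 0. Over 3880 values of single members under 21 settings, 120 lost and 54 gained a call, and no called value changed sign. With 2 control libraries alone, each of them weighs on the calls of both comparisons that use them.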
